A study of Mus musculus with 6 samples.

Results

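Sln, Myl7, Myl4, Bmp10, Mybphl and Dkk3 are transcripts that mark the atria of the adult mouse heart: 4 parts of the atrial contractile machinery and 2 secreted factors. They were taken by symbol from a deposited table of 22063 genes, in which all 6 were found. Cardiomyocytes of genotype WT were the source of the RNA. They were isolated by Langendorff perfusion, in which enzymes are passed through the vessels of the heart to free the cells. Control mice (3 libraries) had received phosphate-buffered saline, and AKG mice (3 libraries) had received α-ketoglutarate, a metabolite of the Krebs cycle, at 300 mg/kg each day. The labels state injections over 2 weeks and postnatal day 21 for the mice of both groups, with no other allele or agent; they do not say at which age injections began. The study asked by which pathways α-ketoglutarate acts on the division of heart muscle cells. No chamber is named in the labels, and the number of mice behind each library is not stated, so p-values measure only the spread between these libraries, which may be technical.

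Atrial and ventricular muscle cells build the same sarcomere from different isoforms of the same proteins. Each myosin head carries a regulatory and an essential light chain, which are Myl7 and Myl4 in the atrium and Myl2 and Myl3 in the adult ventricle. The calcium pump of the sarcoplasmic reticulum is held back by sarcolipin (Sln) in the atrium and mainly by phospholamban (Pln) in the ventricle. Bmp10 is a growth factor of the BMP family that the embryonic ventricle makes while its wall is trabeculated and that is confined mostly to the right atrium in the adult mouse. Mybphl is a relative of cardiac myosin-binding protein C found in atrial and conduction cells, and Dkk3 is a secreted glycoprotein of the Dickkopf family.

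The members were chosen because of how they differed between these same libraries, so their AKG and Control values are a description and carry no test. Levels are given as CPM, counts relative to the library total with TMM scaling, which sets the bulk of genes level between libraries, and comparisons between genes use FPKM, which is also divided by transcript length. Library totals ran from 14402876 to 17797368 counts, and 3 counts corresponded to 0.166 to 0.221 CPM. By the quasi-likelihood test of edgeR, 50.2% of 13117 genes differed at a Benjamini-Hochberg adjusted p under 0.05, 3281 of them higher after AKG (25.0%) and 3309 lower (25.2%). Scaled by total counts these were 7431 and 1196, and the median over all genes shifted by 0.45 on the log2 scale. Transcripts that define heart muscle cells of either chamber, Tnnt2, Myh6 and Ryr2 among the 10 listed, were abundant in every library. They summed to 62819 to 67971 CPM in Control and to 31719 to 34705 CPM in AKG. Of these 10, 0 were higher and 7 lower after AKG, or 3 and 4 when scaled by total counts. Y-linked transcripts summed to 168, 0.311 and 176 CPM in Control 1, 2 and 3. In AKG 1, 2 and 3 they summed to 89.2, 50.4 and 39.0 CPM, and they did not follow the atrial transcripts. The sex of the mice was thus not even between libraries, and the tests did not adjust for it.

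Promoter sequence in RefSeq (GRCm38.p6) was matched by symbol for 4 of the 6 genes. The 3 windows below are shown because these genes moved together and each window held a motif of those searched. Each is the 250 bases before the annotated start, 5′ to 3′, and capitals mark the matches. The Myl4 window lies at only 1 of several annotated starts and is not printed.
Myl7, chr11:5898783-5899032, minus strand: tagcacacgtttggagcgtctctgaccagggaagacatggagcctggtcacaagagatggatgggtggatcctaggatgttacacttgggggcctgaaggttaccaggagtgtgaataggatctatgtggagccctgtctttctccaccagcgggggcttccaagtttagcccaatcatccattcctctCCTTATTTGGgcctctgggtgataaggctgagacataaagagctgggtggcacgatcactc
Bmp10, chr6:87428744-87428993, plus strand: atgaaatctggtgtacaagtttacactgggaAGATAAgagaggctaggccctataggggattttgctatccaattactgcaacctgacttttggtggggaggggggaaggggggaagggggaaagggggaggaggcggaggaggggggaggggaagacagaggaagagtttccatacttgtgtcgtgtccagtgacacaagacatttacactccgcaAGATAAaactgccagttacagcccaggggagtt
Mybphl, chr3:108364661-108364910, plus strand: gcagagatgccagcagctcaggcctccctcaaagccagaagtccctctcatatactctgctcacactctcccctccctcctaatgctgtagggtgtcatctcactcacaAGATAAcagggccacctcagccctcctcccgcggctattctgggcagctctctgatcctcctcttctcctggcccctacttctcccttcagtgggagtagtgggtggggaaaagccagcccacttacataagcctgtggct
The motifs searched on both strands were AGGTGT for T-box factors, AGATAA for factors of the GATA family, TNAAGTG for NKX2-5, AGGTCA as the nuclear receptor half-site, and the MEF2 and SRF sites by name. The matches did not overlap. The Myl7 window held an SRF site, CCTTATTTGG, beginning 61 bases before the start, and 1.47% of the 32851 RefSeq windows of the same length held an SRF site. The Bmp10 window held AGATAA at 219 and 33 bases before the start, and the Mybphl window held it at 141 bases, beside 9.99% of all windows with at least 1 such match. In the letters searched, no motif of the 6 was common to the 3 printed windows, and the Myl4 window held none of them. The Myl7 window holds TGATAA, which differs from AGATAA only in its first letter and was not searched. These matches are letters in a sequence and were not tested as binding sites.

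The atrial contractile transcripts were present in 2 of the 3 AKG libraries and near the Control level in the third. Sln, the inhibitor of the calcium pump, stood at 0.476, 0.248 and 0 CPM in Control 1, 2 and 3 and at 42.8, 0.186 and 28.8 CPM in AKG 1, 2 and 3. In counts this was 7, 4 and 0 reads against 762, 3 and 519. AKG 2 lay inside the Control range, so the groups overlapped.

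The regulatory light chain Myl7 stood at 4.15, 3.66 and 0.81 CPM in Control 1, 2 and 3 and at 138, 1.12 and 88.0 CPM in AKG 1, 2 and 3. The essential light chain Myl4 stood at 6.94, 5.03 and 5.45 CPM in the Controls and at 118, 5.59 and 74.9 CPM in the AKG libraries. For both light chains AKG 2 lay within the Control values and AKG 1 was the highest library. Mybphl, the thick filament protein, stood at 0.476, 0.248 and 0.147 CPM in the Controls and at 14.3, 0.621 and 12.04 CPM in the AKG libraries. Its AKG 2 value, 10 counts, lay just above the highest Control, 7 counts, so the groups did not overlap, but the gap at the bottom rested on a few reads.

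The secreted factors differed from each other in their floor. Bmp10 had 0, 1 and 0 counts in Control 1, 2 and 3 and 809, 1 and 286 counts in AKG 1, 2 and 3, which is 45.5, 0.0621 and 15.9 CPM in AKG. It was therefore at the limit of detection in 4 libraries and well above it in AKG 1 and AKG 3. Dkk3 stood at 12.9, 13.0 and 8.1 CPM in the Controls and at 67.4, 22.1 and 59.5 CPM in the AKG libraries. Dkk3 was measured well above the floor in every library, and it was the member with the largest AKG 2 value relative to the highest Control. All 3 AKG values lay above the Controls for Dkk3 and Mybphl. By CPM this was also so for Bmp10, but only by scaling, with 1 count each in AKG 2 and Control 2. The same held for 29.4% of all genes tested, and 29.9% had all AKG values below the Controls, shares set beside these members only as background, since they were chosen on this contrast.

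**Figure D1:**
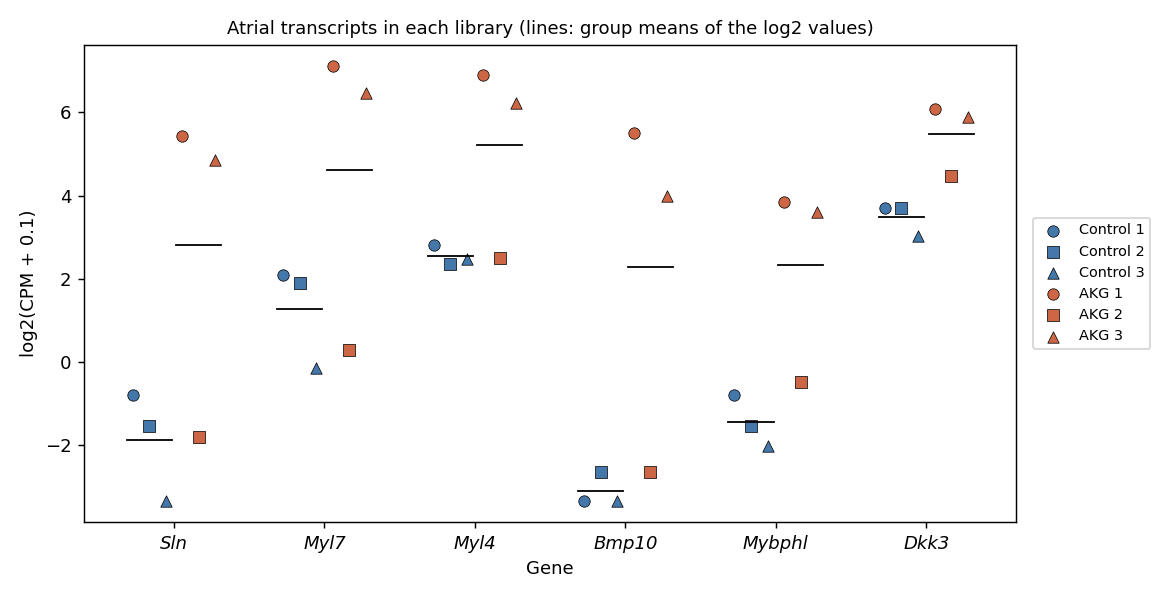
Each point is 1 library, on a log2(CPM + 0.1) axis, for the 6 atrial transcripts; blue points are Controls, orange points AKG, the symbols mark replicate 1 (circle), 2 (square) and 3 (triangle), and short lines are the group means of the log2 values. AKG 1 and AKG 3 stand apart for each gene, from 67.4 and 59.5 CPM for Dkk3 to 45.5 and 15.9 CPM for Bmp10, while AKG 2 (orange square) lies among or just above the Controls.

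Expressed as group means, the same values had a wide spread in AKG, which for Bmp10 (20.5 ± 23.1 CPM, SD, n = 3) exceeded the mean and was smallest relative to the mean for Dkk3. Myl7 averaged 2.88 ± 1.81 CPM in Control and 75.6 ± 69.2 CPM in AKG (mean ± SD, n = 3), Myl4 5.81 ± 1.0 and 66.3 ± 56.9 CPM, and Dkk3 11.3 ± 2.79 and 49.6 ± 24.2 CPM. The fitted log2 fold changes were 4.69 (SE 1.78) for Myl7, 3.52 (SE 1.24) for Myl4, 4.91 (SE 1.54) for Mybphl and 2.13 (SE 0.54) for Dkk3. These 4 passed the filter on low counts. Sln and Bmp10 did not pass it, since 10 counts or more were reached in only 2 libraries. Summed over libraries, Sln had 11 Control and 1284 AKG counts, a ratio of 99.8 after scaling (exact 95% binomial interval 55.6 to 200.4), and Bmp10 had 1 and 1096, a ratio of 937 (168 to 37042). These intervals cover counting error only and leave out the difference between AKG libraries, which was larger. Against the Control mean, Myl7 was 47.9-fold higher in AKG 1, 30.6-fold higher in AKG 3 and at 0.389 of it in AKG 2. For Dkk3 the corresponding folds were 5.96, 5.26 and 1.95. With AKG 2 alone set against the Controls, the log2 fold changes of Myl7 and Myl4 were -1.37 and -0.05.

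Per transcript length, the order of the members also differed between libraries. In both AKG 1 and AKG 3 the order by FPKM was Myl7, Myl4, Sln, Dkk3, Mybphl and Bmp10, from 271 down to 11.8 FPKM in AKG 1 and from 182 down to 4.31 FPKM in AKG 3. In AKG 2 Dkk3 came first at 7.34 FPKM, followed by Myl4 at 6.91 and Myl7 at 2.12 FPKM. The Controls had Myl4 or Myl7 first, at 5.01 to 6.38 FPKM, with Dkk3 at 2.02 to 3.50 FPKM. In these 3 libraries and in AKG 2, Sln, Mybphl and Bmp10 were each at most 0.544 FPKM. The neighbours Mybphl and Sln differed by less than their spread in the Controls (0.195 ± 0.108 and 0.157 ± 0.151 FPKM, SD, n = 3).

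The members were also set side by side between AKG 1 and AKG 3, the libraries in which they were high. Sln, Myl7 and Myl4 were 1.49-fold (95% counting interval 1.33 to 1.67), 1.57-fold (1.47 to 1.67) and 1.58-fold (1.48 to 1.69) higher in AKG 1 than in AKG 3, so these 3 intervals overlapped. Bmp10 was 2.87-fold higher (2.501 to 3.29), and its interval did not meet that of any other member. The contractile member Mybphl (1.19, 0.985 to 1.43) and the secreted Dkk3 (1.13, 1.04 to 1.23) were closer to parity, and both intervals lay below those of Myl7 and Myl4. The intervals cover counting error only. Over all genes AKG 1 and AKG 3 differed well beyond it, with a mean chi-square of 21.5 per gene. That statistic grows with a gene's count, and how the ratios of these transcripts compare with those of other genes was not tested.

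**Figure D2:**
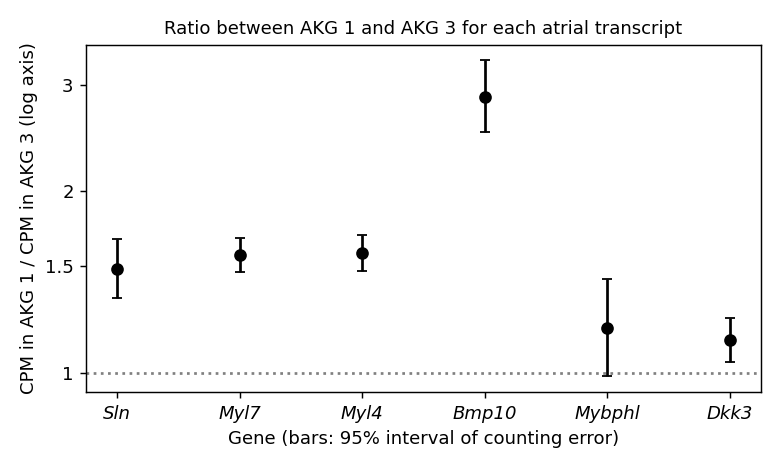
Ratio of CPM in AKG 1 to CPM in AKG 3 for each atrial transcript on a log axis, with bars for the exact 95% binomial interval of counting error and a dotted line at equal level. Sln, Myl7 and Myl4 sit together near 1.5, Bmp10 alone is near 2.9, and Mybphl and Dkk3 are near 1.2.

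Set against a counterpart, the atrial transcripts made up a few percent of each pair in AKG 1 and AKG 3. The counterparts of the light chains were the ventricular Myl2 and Myl3. Those of Sln and Mybphl were Pln and Mybpc3, listed here as markers of both chambers. Myl7 was 0.0872%, 0.0841% and 0.018% of the sum of Myl7 and Myl2 by FPKM in Control 1, 2 and 3, and 5.16%, 0.0406% and 3.70% in AKG 1, 2 and 3. Myl4 was 0.158%, 0.117% and 0.116% of Myl4 plus Myl3 in the Controls and 4.88%, 0.202% and 3.05% in the AKG libraries. Even in AKG 1, then, the ventricular chains were 18.4 and 19.5 times as abundant per length as the atrial ones. Sln reached 1.80% and 1.35% of Sln plus Pln in AKG 1 and AKG 3, with 0.00817% in AKG 2 and at most 0.0223% in the Controls. Mybphl reached 1.93% and 1.53% of Mybphl plus Mybpc3, with 0.0824% in AKG 2 and at most 0.0695% in the Controls. In AKG 1 and AKG 3 the light chain shares were the larger ones and those of the Sln and Mybphl pairs the smaller. In AKG 2 and Control 3 the order was different, with the Myl4 share above that of Mybphl and the Mybphl share above that of Myl7. In bulk RNA, more cells of a type and more RNA per cell cannot be told apart.

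**Figure D3:**
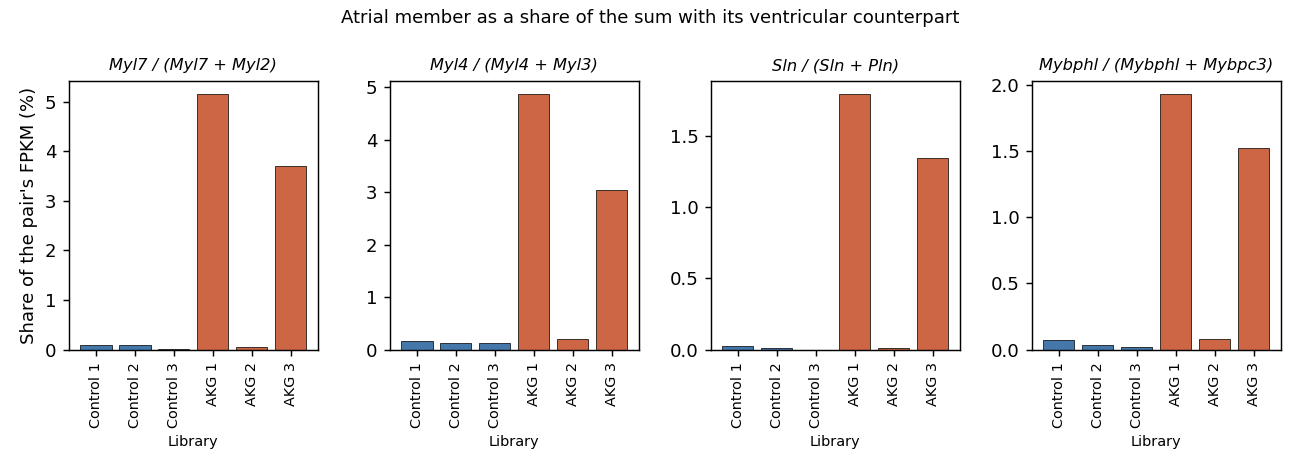
Bars give the atrial transcript as a percentage of its summed FPKM with its counterpart in each library (blue Control, orange AKG). The counterpart is ventricular for the light chains, while Pln and Mybpc3 are markers of both chambers. Each panel has its own axis, starting at 0. The shares reach 5.16% (Myl7), 4.88% (Myl4), 1.80% (Sln) and 1.93% (Mybphl) in AKG 1, and AKG 2 stays at 0.202% or less.

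The counterparts themselves differed far less between the AKG libraries than the atrial isoforms did. Myl2 stood at 4983.8, 5211.7 and 4726.3 FPKM in AKG 1, 2 and 3, and Myl3 at 2983.8, 3417.5 and 3225.5 FPKM. Both light chains were thus highest in AKG 2. Pln stood at 2063.1, 1933.4 and 1952.9 FPKM and Mybpc3 at 659.95, 659.29 and 742.59 FPKM. Myl2 fell from 5108 ± 223 to 2845 ± 261 CPM (log2 fold change -0.84, edgeR quasi-likelihood adjusted p = 1.66e-05) and Myl3 from 4577 ± 189 to 2575 ± 247 CPM (-0.83, adjusted p = 1.83e-05), with all 3 AKG values below all 3 Controls for both. Pln stood at 3238 ± 73.5 and 3216 ± 106 CPM (adjusted p = 0.939) and Mybpc3 at 2328 ± 137 and 2452 ± 85.4 CPM (adjusted p = 0.519). When scaled by total counts both were higher after AKG (0.43 and 0.52 on the log2 scale, adjusted p = 0.000546 and 0.000168). The nonmuscle and smooth muscle light chain Myl6 fell by 0.83, the fast skeletal relative Mybpc2 fell by 1.07 and Myl9 had a log2 fold change of -0.19 (adjusted p = 0.184). Other relatives were near 0: Dkk4 had 0 counts in all 6 libraries, and Gdf2, the closest relative of Bmp10, had 4 counts in the Controls and 0 in AKG. Of 8 ventricular markers, 5 were higher and 2, the light chains, lower. Hey2, a ventricular transcriptional repressor, rose from 5.93 ± 0.361 to 15.8 ± 0.707 CPM (adjusted p = 1.09e-06), and Myh7, the slow myosin heavy chain, rose by 6.34 on the log2 scale. AKG 2 was the lowest AKG library for 1 of these 8 genes, against 30.3% of all genes tested.

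Of 22 other atrial markers, 21 passed the filter, and 9 of these were higher and 4 lower after AKG, with a median log2 fold change of 0.58. Among all genes 25.0% were higher and 25.2% lower. The smallest p-values among the rises belonged to Pam, an enzyme of peptide amidation that is a main membrane protein of atrial granules (181 ± 13.5 to 498 ± 130 CPM, adjusted p = 0.000709), and Chrm2, the muscarinic receptor of the vagus (41.7 ± 1.13 to 78.5 ± 18.1 CPM, adjusted p = 0.000756). Nppa, the atrial natriuretic peptide, Gja5, Kcnj5, Tbx5, Angpt1 and Clu also rose. The 4 that fell were Kcnk3, a background potassium channel (116 ± 7.25 to 52.4 ± 4.76 CPM, adjusted p = 2.06e-07), the light chain Myl1 (36.0 ± 10.5 to 7.54 ± 2.87 CPM, adjusted p = 0.00441), Hey1 and Adm. Angpt1 and Clu lost the call without any 1 of Control 1, Control 2, Control 3 or AKG 3 (adjusted p = 0.0591 to 0.082 and 0.0645 to 0.14). Hey1 and Adm lost the call when scaled by total counts (adjusted p = 0.352 and 0.45). Hey1 also lost it without Control 2, Control 3 or AKG 1 (0.0966, 0.0782 and 0.0857), and Adm without Control 1 or AKG 2 (0.0582 and 0.0508).

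The count rested on which AKG libraries were used. Without AKG replicate 2, 14 of 22 were higher and 3 lower; with AKG 2 alone, 5 of 21 were higher and 4 lower, and with AKG 1 or AKG 3 alone 14 and 15 of 22 were higher. When scaled by total counts 14 were higher and 2 lower. AKG 2 was the lowest AKG library for 16 of the 21 markers, where the share over all genes was 30.3%. Genes above the Controls in AKG 2 as well included Pam, at 529, 355 and 610 CPM in AKG 1, 2 and 3 beside 168 to 195 CPM in the Controls, Nppa, at 499.6, 454 and 720.04 CPM beside 85.7 to 139 CPM, and Chrm2, at 70.3, 65.9 and 99.3 CPM beside 40.7 to 42.9 CPM. For these 3 genes every AKG library lay above every Control, unlike Sln, Myl7 and Myl4. With AKG 2 alone the adjusted p of Nppa was 0.0618.

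**Figure D4:**
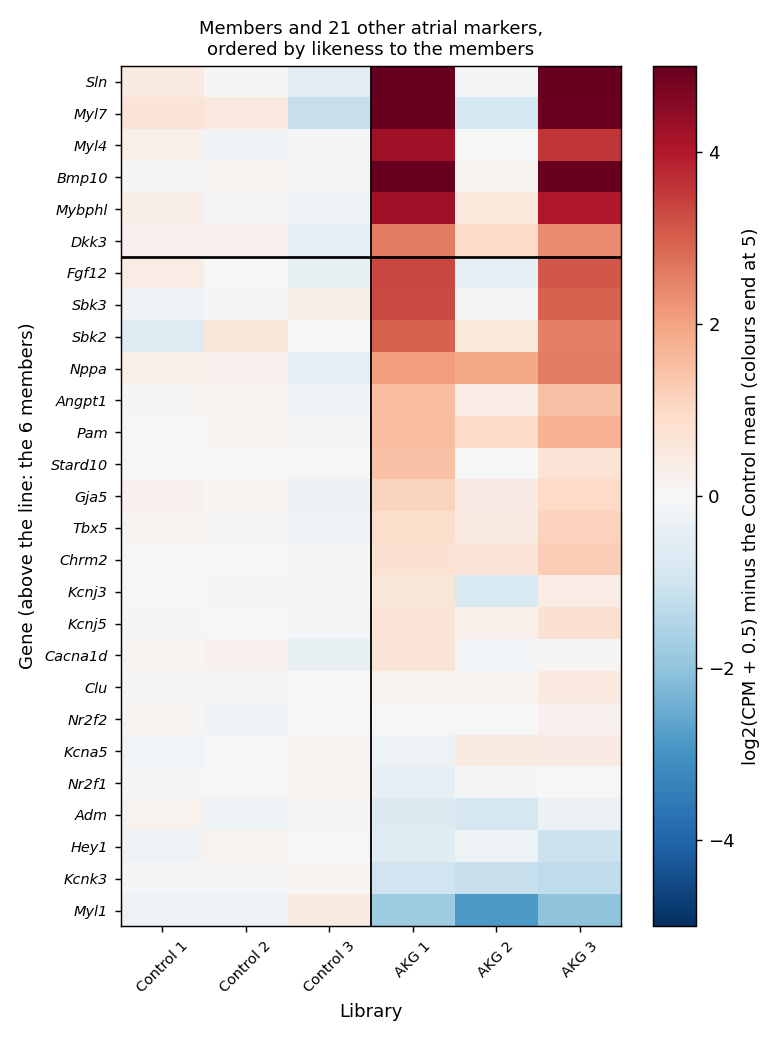
Heat map of log2(CPM + 0.5) minus the Control mean for the 6 members (above the line) and 21 of the 22 other atrial markers, ordered by how like the members their profile was; columns are the 6 libraries and the colours end at 5 in either direction. Fgf12, Sbk3 and Sbk2 share the dark columns of AKG 1 and AKG 3 with a pale AKG 2, Nppa and Pam are raised in all 3 AKG libraries, and Myl1 and Kcnk3 at the bottom are lower in all 3.

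Genes that followed the members most closely were sought over all 6 libraries. Each gene's log2 CPM was centred on its own mean, and likeness was the root mean square difference from the median profile of the members, a description with no test. Among 13436 genes with 10 counts or more in at least 2 libraries, members included, the nearest gene outside the members was Fgf12, an intracellular modulator of sodium channels, at a difference of 0.588. It had 7, 4 and 1 counts in the Controls and 127, 1 and 107 counts in AKG 1, 2 and 3. Tmem163, a zinc transporter gene, was next (0.755), with 5, 6 and 1 counts against 120, 7 and 72. Both had the AKG 2 value at the Control level, as Sln and Myl7 did.

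The rest of the 12 nearest were Hydin, Clca3a2, Sbk3, Frmpd1, Gabrb1, Sbk2, Nlrc5, Lmntd1, Fras1 and Slc39a8, at differences of 0.99 to 1.59. The kinase gene Sbk3 stood at 1.63, 1.80 and 2.58 CPM in the Controls and 24.1, 1.80 and 18.5 CPM in AKG 1, 2 and 3. Its relative Sbk2 stood at 0.408, 1.68 and 0.957 CPM and at 10.5, 1.55 and 7.77 CPM. Both Sbk genes thus had AKG 2 within the Control range, and neither passed the test over 6 libraries (adjusted p = 0.0595 for Sbk2 and 0.0935 for Sbk3). Fgf12, Sbk2 and Sbk3 were on the list of other atrial markers, and the other 9 were not on any list used here. Fras1, a basement membrane protein, was also raised in AKG 2, at 7.45 CPM beside 1.497 to 1.69 CPM in the Controls and 19.5 and 15.4 CPM in AKG 1 and AKG 3. Nlrc5, the activator of MHC class I genes, was highest in AKG 3 (21.3 CPM) and not in AKG 1 (5.45 CPM). Measured in the same way, the members stood at 0.443 (Mybphl), 0.5 (Myl7), 0.866 (Myl4), 1.2 (Sln), 1.62 (Dkk3) and 1.82 (Bmp10). Each member helped to set the median profile it was measured against, so these values are not comparable with those of other genes.

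Bmp10 acts through the type I receptors Acvrl1 and Bmpr1a, the type II receptors Bmpr2, Acvr2a and Acvr2b and the co-receptor Eng, and its signal passes by Smad1, Smad5 and Smad9 to target genes of the Id family. Of 28 genes of this pathway 22 were tested, and 9 were higher and 7 lower after AKG, with a median of 0.21. The co-receptor Tgfbr3 rose from 27.1 ± 1.36 to 55.9 ± 9.08 CPM (adjusted p = 6.24e-06) and Bmpr2 from 85.9 ± 4.34 to 121 ± 3.96 CPM (adjusted p = 7.22e-05). Eng, an endothelial co-receptor, fell from 362 ± 21.8 to 227 ± 7.3 CPM (adjusted p = 1.17e-05). Receptors and co-receptors thus moved in both directions. Among the Smad genes, Smad1, Smad5 and Smad4 rose by 0.61, 0.34 and 0.54 on the log2 scale. Smad7 fell by 0.68, and Smad9 had a log2 fold change of 0.08 (edgeR adjusted p = 0.793).

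Among the targets, Id3 fell from 80.8 ± 8.55 to 52.3 ± 3.64 CPM (adjusted p = 6.2e-05). Its AKG values were 56.4, 51.1 and 49.5 CPM in AKG 1, 2 and 3. Bmp10 stood at 45.5, 0.0621 and 15.9 CPM in the same libraries, and a link between these genes was not tested. Id1 stood at 56.4, 60.0 and 35.7 CPM in AKG and 78.3 to 92.4 CPM in Control (adjusted p = 0.0232, and 0.0514 to 0.0639 without Control 1, Control 3 or AKG 1), and Id2 rose by 0.47 on the log2 scale (adjusted p = 0.0123). When scaled by total counts 11 genes of the pathway were higher and 2 lower, and Id3 and Id1 had adjusted p-values of 0.115 and 0.0972. AKG 2 was the lowest AKG library for 6 of the 22, against 30.3% of all genes tested.

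Sarcolipin's target, the calcium pump Atp2a2, fell from 4142 ± 255 to 2873 ± 410 CPM (log2 fold change -0.53, adjusted p = 0.00171), and when scaled by total counts it had a log2 fold change of -0.08 (adjusted p = 0.595). Of 6 tested genes of the pump and its regulators, 1 was higher, the phosphatase inhibitor gene Ppp1r1a, and 3 were lower, Atp2a2, Hax1 and the calcium sensor S100a1 (265 ± 23.0 to 114 ± 18.4 CPM, adjusted p = 2.48e-06). With total counts 2 were higher and 1 lower. Mrln and Strit1, which encode other small proteins that regulate the pump, had at most 7 counts in any library.

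Beside Dkk3, 9 of 19 genes of the Dickkopf family, the receptors of that family and canonical Wnt targets could be tested. Of these, 4 were higher and 0 lower (3 AKG libraries against 3). They were Ctnnb1 (log2 fold change 0.29), Tcf7 (1.04), Lrp5 (0.36) and Kremen1 (0.22), with adjusted p from 0.00588 to 0.0261. Without Control replicate 1 and without Control replicate 2 only 2 were higher. When scaled by total counts 6 were higher and 0 lower. Whether Dkk3 acts through Lrp5 or Kremen1 was not tested. The target Axin2 stood at 2.71 ± 0.372 and 2.72 ± 0.709 CPM (adjusted p = 0.976). Dkk1 and Dkk2 had at most 10 counts in a library, so Dkk3 was the only Dickkopf gene measured above that level.

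Markers of other tissue near the atria were read in the same libraries. Of 16 sinoatrial and conduction markers 13 were tested, with 4 higher and 5 lower (5 and 2 when scaled by total counts); Tbx18 rose by 1.0, Etv1 by 0.63, and Smoc2 and Cntn2 fell by 1.02 and 1.57 on the log2 scale. The pacemaker channel Hcn4 stood at 4.95, 3.91 and 4.77 CPM in AKG 1, 2 and 3 and at 5.85 to 7.45 CPM in the Controls. Its fall (edgeR adjusted p = 0.0167) lost the call when scaled by total counts (0.582). It also lost the call without Control 2 or AKG 2 (0.0726 and 0.066). Isl1 had at most 2 counts in a library. The calcium channel subunit gene Cacna2d2 stood at 7.7, 1.3 and 5.88 CPM in AKG 1, 2 and 3 beside 1.40 to 2.31 CPM in the Controls (adjusted p = 0.119). AKG 2 was the lowest AKG library for 9 of the 13, against 30.3% of all genes tested.

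Of 10 epicardial and mesothelial markers 8 were tested, and 4 rose: Krt18, Krt8, Gpm6a and Muc16. The count was 7 when scaled by total counts and 2 without Control replicate 3 or AKG replicate 1, and Muc16 (adjusted p = 0.0443) did not pass with DESeq2 (0.0883). The list summed to 21.1 to 25.4 CPM in the Controls and to 51.8, 40.5 and 34.2 CPM in AKG 1, 2 and 3. Krt18 and Krt8 were above the Controls in all 3 AKG libraries, Krt18 at 12.3, 11.0 and 9.88 CPM beside 0.663 to 1.49 CPM. The keratin gene Krt19 of the same list stood at 3.43, 2.05 and 1.66 CPM in AKG 1, 2 and 3 beside 1.43 to 2.36 CPM (adjusted p = 0.474). Upk3b, which marks mesothelium, stood at 4.72, 1.55 and 1.66 CPM in AKG 1, 2 and 3 and at 0.994 to 1.70 CPM in the Controls, and Msln at 4.33, 2.36 and 1.55 CPM beside 1.25 to 1.86 CPM. Both were highest in AKG 1, the library with the most Bmp10, and not raised in AKG 3; neither passed the test (adjusted p = 0.0751 and 0.107). When scaled by total counts both passed (0.00858 and 0.00969), and Upk3b also passed with DESeq2 (0.0458) and without AKG 2 or AKG 3 (0.0293 and 0.0295), and Msln without AKG 3 (0.0179).

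Sln and Myl4 are also made by skeletal muscle, and markers of that tissue were read in the same way. Of 15 skeletal muscle markers 3 were tested. Myh4 and Myod1 had 0 counts in all 6 libraries, and the list summed to 36.5 to 51.0 CPM in the Controls and to 9.01 to 10.3 CPM in AKG. Most of that was Casq1, which fell from 36.9 ± 7.35 to 5.59 ± 0.411 CPM (adjusted p = 2.52e-08). Tnni2 fell as well, from 3.22 ± 1.19 to 0.893 ± 0.246 CPM. Myh8, a perinatal myosin, rose: it had 0 counts in the Controls and 44, 13 and 35 counts in AKG 1, 2 and 3, so AKG 2 was the lowest AKG library here too, though not at the Control level. Of 10 markers of cardiac ganglion neurons, Th, Chrna3, Chat and Slc18a3 had 0 counts in all 6 libraries. The 2 tested both fell, Stmn2 from 8.37 ± 0.719 to 4.32 ± 0.385 CPM and Dbh from 3.84 ± 0.751 to 0.537 ± 0.168 CPM. Of 8 endocardial markers 4 rose, led by Npr3 (14.5 ± 1.65 to 50.7 ± 8.29 CPM, adjusted p = 3.55e-07), while Cytl1 fell, and 7 rose when scaled by total counts. AKG 2 was the lowest AKG library for 6 of these 8, against 30.3% of all genes tested. Among 10 markers each, 2 rose and 5 fell for fibroblasts, and 3 and 3 for endothelium. For smooth muscle the counts were 1 and 7, and for macrophages 0 and 5. When scaled by total counts the tallies, in the same order, were 2 and 2, 7 and 0, 2 and 3, and 1 and 3. AKG 2 was the lowest AKG library for 3, 0, 2 and 6 of these markers, against 30.3% of all genes tested. The 1 adipocyte marker tested fell, and it lost the call when scaled by total counts. The part of any of these cells in the members' values was not tested.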

How the data were processed

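The authors deposited, per the file headers, estimated counts (whole numbers) and FPKM values per gene and library, where FPKM divides a count by transcript length and library size. Their deposited log2 ratio and p-value columns are not used here. HISAT2 2.1.0, RSEM 1.2.19 and DESeq2 1.20.0 are named, with no role, per the submitters' processing notes; the genome build and strand setting are not given in the sources used here. Rows without a symbol (30) held 3.95e-05% of counts.

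The count tests ran in edgeR 4.0.16 (R 4.3.3): filterByExpr (minimum count 10, total 15), TMM, a robust quasi-likelihood test and Benjamini-Hochberg adjustment over all genes tested (threshold 0.05). Each SE was derived from the log2 fold change and its F statistic. The fits were tested on simulated data. Alternatives used DESeq2 1.42.0, limma 3.58.1 on log2(FPKM + 1) and log2(FPKM + 0.1), other scalings and filters, a replicate block, each library left out and each AKG library alone.

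The members and lists were chosen with earlier results of these data known. Named were all members, relatives at FPKM 1 or more, up to 4 genes of a list by smallest p and the 12 nearest genes; further list members were named after their values were seen. A gene of the atrial list is counted with it but is not reported here.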

Additional observations from a re-analysis of the deposited data

How the results depend on the processing

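The counts over all genes moved most with total counts as the scaling and with limma on FPKM, which also changes the unit, the filter and the test: 7431 higher and 1196 lower with total counts, 6805 and 1093 with limma on log2(FPKM + 1), and 6803 and 1090 on log2(FPKM + 0.1). In these 3 settings the other atrial markers had 2 lower (14 higher with total counts) and the BMP10 pathway 2 lower, and Acvrl1 and Fkbp1a changed sign, to log2 fold changes of 0.0187 and 0.19, 0.00418 and 0.189, and 0.00476 and 0.19. With AKG 1, AKG 2 or AKG 3 alone, where the lone library is assumed to vary like the Controls, 14, 5 and 15 other atrial markers were higher. With AKG 2 alone the median log2 fold change of the 4 members that passed the filter was 0.46 instead of 4.10, and Myl7 and Myl4 turned to -1.37 and -0.0476. With each library left out in turn, 7 to 14 other atrial markers were higher and 3 to 4 lower, 8 to 9 genes of the BMP10 pathway were higher and 5 to 7 lower, 2751 to 3296 genes were higher and 2845 to 3243 lower, and the members' median was 3.38 to 5.37. That median is over 4 members without AKG 1 or AKG 3 and over 6, Sln and Bmp10 included, in the other 4 fits. All 6 members passed the looser filter, with a median of 4.80.

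The replicate numbers did not pair the samples: same-numbered libraries correlated at 0.153, -0.016 and 0.0382 in their deviations from the group means. With the replicate block 3257 genes were higher and 3314 lower, 9 other atrial markers were higher and 4 lower, and the members' median was 3.59. Under the block Id1 and Muc16 lost the call (adjusted p = 0.0659 and 0.0504) and Upk3b gained it (0.0226). Of 1119 values of single genes under alternatives, 1001 were classed as unchanged, a loose class. For a member it required the same sign and a shift smaller than the SD of its log2 CPM over the AKG libraries, which was wide. For any other gene it required the same side of the threshold. Direction counted only for genes called in the main fit, so genes not called could change sign. At this depth Sln, Bmp10 and Mybphl rest on 10 counts or fewer in 4 libraries each.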
